A study of Mus musculus with 4 samples.

Results

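The genes of the Gadd45 family and a set of p53 targets were followed on 4 arrays of mouse heart RNA. The members were fixed by name as Gadd45a, Gadd45b, Gadd45g, Cdkn1a, Mdm2, Ccng1, Trp53, Btg2, Sesn1 and Sesn2, and every probe set annotated with exactly one of these symbols was taken. This gave 21 of the 45037 probe sets that are not controls, for 9 of the 10 genes, and Trp53 was not analysed here. The study asked how the adult heart responds to loss of RHAU, an RNA helicase encoded by Dhx36 that unwinds G-quadruplex structures. The labels name the arrays only as heart, Rhau KO (n = 2) or Control (n = 2). The study describes CAAG-ERT2-Cre;Rhau F/F animals for the first group and Rhau F/F animals for the second, all adult C57BL/6J. Both groups are given as carrying the floxed Rhau alleles and as having received 5 doses of tamoxifen at 2 months of age, and hearts were taken 2 months later. The Cre is induced by tamoxifen and is not restricted to cardiomyocytes by its promoter, and no array of animals with Cre and wild-type Rhau was part of this comparison. No source states whether the 2 arrays of a group are from different animals, and p-values here cover the spread between arrays alone, which may be technical.

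p53 is a transcription factor that is stabilized by DNA damage and other stress and switches on genes that stop the cell cycle, repair DNA or drive cell death. MDM2 is the ubiquitin ligase that p53 induces and that in turn marks p53 for degradation. GADD45 proteins bind PCNA, CDK1 with cyclin B1, and the kinase MAP3K4 upstream of p38 and JNK, while p21 (Cdkn1a) inhibits cyclin-dependent kinases. Many of these genes are also induced without p53, by growth factors, inflammation or heat stress, and they respond within minutes to hours. In bulk tissue, fewer cells of a type and less RNA per cell cannot be told apart.

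The group labels and the tissue were checked before any member was read, and 2 of the 4 arrays stood apart. Dhx36 was higher in the arrays labelled Rhau KO on each of its 3 probe sets, with 627 and 537 against 156 and 172 where the gap was widest, which goes against the deletion that the labels name. Esr1 is the estrogen receptor gene from which the ERT2 part of the Cre is derived. On its dimmer probe sets the groups overlapped, and only Control replicate 1 was high. They read 7.90 and 43.8 under Rhau KO against 518 and 28.7 under Control, and 87.8 and 107 against 1936 and 74.0. On its brightest probe set, Esr1 read 5.40 and 25.5 under the Rhau KO label and 18036 and 19847 under the Control label. All directions below are therefore those of the array labels, and each would turn if the labels of the 2 groups were exchanged. All 10 cardiomyocyte markers, among them Tnni3 and Myh6, were lowest in Control replicate 1, where their median intensity was 212 against 45193 to 46831 on the other 3 arrays. Some were only slightly lower there on their brightest probe sets. These were Myl2 (37359 against 40197 to 44161), Myl3 (37087 against 48658 to 50786) and Atp2a2 (35567 against 43459 to 48326). All 10 markers of fast skeletal muscle, among them Myh4 and Actn3, were highest in Control replicate 1. Their median intensity was 43444 there against 39.4 to 70.2 on the other 3 arrays. Ckm, at 29873 to 39279 on its brightest probe set, and Acta1, at 16893 to 35886, were bright on all 4 arrays. All 16 listed heat shock and immediate early genes, among them Hspa1a, Fos and Atf3, were highest in Control replicate 2. Their summed intensity was 213951 there, 58759 in Control replicate 1 and 87508 to 89525 in the Rhau KO arrays. Some were only slightly higher there, such as Dusp1 (7606 against 4790 to 7304) and Zfp36 (1312 against 786 to 1256). No gene of these 3 lists read 0 on any array. Each member is therefore given on all 4 arrays and again without Control replicate 1.

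The promoters of 5 members are shown so that the Gadd45 family itself can be set beside a pair of the cell cycle targets, Cdkn1a and Btg2. Each line is the 250 bases before the RefSeq transcript start, in the direction of transcription, build GRCm38.p6. Capitals mark matches on either strand to the CCAAT box (CCAAT), the cAMP response element (TGACGTCA), the octamer (ATTTGCAT), the TATA box (TATAAA) and the p53 decamer, the 10-base unit that p53 response elements repeat. Cdkn1a has 2 windows, of which the upstream one is shown. The windows are chr6:67037408-67037657 on the minus strand for Gadd45a, chr10:80929841-80930090 on the plus strand for Gadd45b, chr13:51846425-51846674 on the plus strand for Gadd45g, chr17:29090729-29090978 on the plus strand for Cdkn1a and chr1:134079156-134079405 on the minus strand for Btg2.
Gadd45a: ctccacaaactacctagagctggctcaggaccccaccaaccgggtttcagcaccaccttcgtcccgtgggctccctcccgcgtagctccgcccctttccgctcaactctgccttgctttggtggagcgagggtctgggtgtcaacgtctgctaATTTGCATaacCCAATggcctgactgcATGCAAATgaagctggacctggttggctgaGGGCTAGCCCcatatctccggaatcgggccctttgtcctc
Gadd45b: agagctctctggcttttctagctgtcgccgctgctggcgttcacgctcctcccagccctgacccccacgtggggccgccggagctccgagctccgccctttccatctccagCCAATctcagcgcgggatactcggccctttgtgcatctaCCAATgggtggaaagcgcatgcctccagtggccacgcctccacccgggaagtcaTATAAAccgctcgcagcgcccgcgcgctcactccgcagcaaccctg
Gadd45g: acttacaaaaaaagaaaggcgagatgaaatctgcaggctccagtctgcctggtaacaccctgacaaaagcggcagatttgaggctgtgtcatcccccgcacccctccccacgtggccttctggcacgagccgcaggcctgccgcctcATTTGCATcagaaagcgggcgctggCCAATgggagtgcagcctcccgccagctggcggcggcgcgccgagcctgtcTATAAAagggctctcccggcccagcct
Cdkn1a: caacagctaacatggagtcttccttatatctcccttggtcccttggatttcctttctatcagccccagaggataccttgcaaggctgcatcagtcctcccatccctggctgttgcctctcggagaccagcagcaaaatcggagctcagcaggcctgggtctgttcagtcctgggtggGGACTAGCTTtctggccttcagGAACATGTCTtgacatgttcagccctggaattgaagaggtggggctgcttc
Btg2: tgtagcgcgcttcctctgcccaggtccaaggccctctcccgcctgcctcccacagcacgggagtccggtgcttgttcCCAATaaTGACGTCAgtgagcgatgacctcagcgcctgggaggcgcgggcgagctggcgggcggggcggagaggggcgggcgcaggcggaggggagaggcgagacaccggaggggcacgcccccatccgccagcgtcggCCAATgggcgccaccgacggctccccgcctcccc

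Gadd45a and Gadd45g shared an octamer beside a CCAAT box. In Gadd45a, octamers ended 89 and 62 bases before the start with a CCAAT box between them at 81 bases, and in Gadd45g an octamer ended at 95 bases and a CCAAT box at 73 bases. The octamer was in 2 of 11 windows of the 9 measured genes, and in 1.60% of all 32851 windows of this length. Gadd45b had no octamer but a pair of CCAAT boxes, and it shared a TATA box with Gadd45g, a motif in 12.4% of all windows. The p53 decamer was in 5 of the 11 windows (Gadd45a, Cdkn1a, Ccng1, Mdm2 and Sesn1) and in 7.13% of all windows. In the Cdkn1a window shown, a pair of decamers ended 63 and 41 bases before the transcript start, with other bases between them. The other Cdkn1a window held 0. The Btg2 window held the only cAMP response element among the members, a motif in 1.55% of all windows, next to a CCAAT box. CCAAT was in 9 of the 11 windows against 33.8% of all, and the GC box (GGGCGG, not capitalized) in 8 against 32.7%. The core of the heat shock element (GAANNTTC) was in 0 of the 11 windows against 6.69% of all. The pattern of a DNA G-quadruplex, 4 runs of at least 3 G with loops of 1 to 7 bases, was in 2 of the 11 windows, Btg2 and Sesn1, against 16.7% of all. These matches describe the letters alone, since binding was not measured.

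Gadd45a was the member that separated the labels most. Its probe set 1449519_at read 527 and 759 in the Rhau KO arrays and 2757 and 3365 in the Control arrays. Both Rhau KO arrays lay below both Control arrays, and the gap between groups was wider than the spread within either, 643 ± 164 (SD, n = 2) against 3061 ± 430 (SD, n = 2). The log2 difference, Rhau KO minus Control, was -2.27 (standard error 0.28, 95% interval -2.99 to -1.55), or 4.82-fold lower, with an unadjusted p = 0.000524 and an adjusted p = 0.892 from limma. Without Control replicate 1 it was -2.41 (standard error 0.23), 5.32-fold lower, and Gadd45a then passed the adjusted threshold (adjusted p = 0.0382 from limma). Its 2 Control arrays were 1.22-fold apart, although they differed widely in cardiomyocyte and skeletal muscle markers. The part that the heat shock genes of Control replicate 2 play in this result was not tested.

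**Figure D1:**
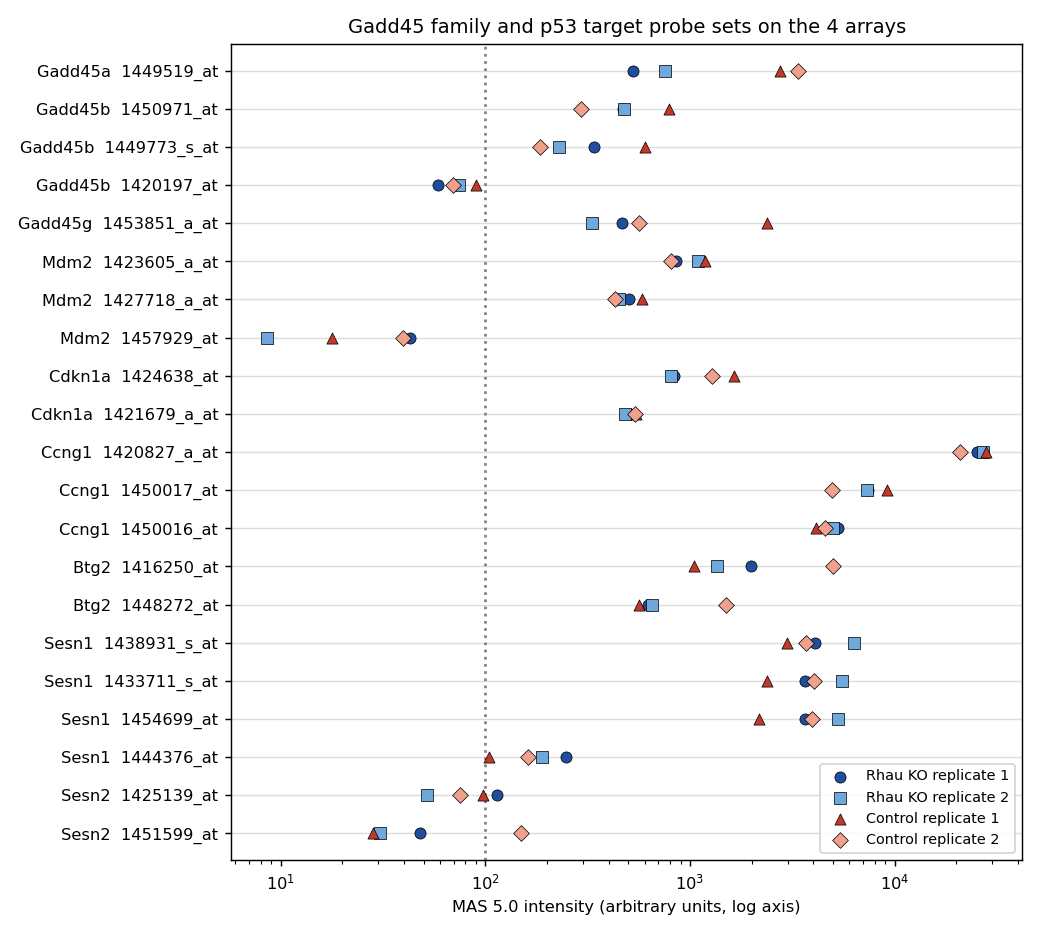
MAS 5.0 intensity (horizontal log axis, arbitrary units) of the 21 member probe sets on each of the 4 arrays, with circles and squares for Rhau KO and triangles and diamonds for Control. The dotted line is an intensity of 100. Gadd45a at the top has both Control arrays (2757 and 3365) far to the right of both Rhau KO arrays (527 and 759), Gadd45g has only Control replicate 1 far to the right (2369), and both Btg2 probe sets have only Control replicate 2 to the right (4987 and 1493).

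Gadd45g, a cytokine-inducible member of the family, was also lower in both Rhau KO arrays, but here a single array made the gap. Its probe set 1453851_a_at read 467 and 334 in the Rhau KO arrays and 2369 and 561 in the Control arrays. Control replicate 1 was 4.23-fold above Control replicate 2, which itself lay just above the higher Rhau KO array. The log2 difference was -1.55 (standard error 0.72, 95% interval -3.42 to 0.32, adjusted p = 0.892 from limma) with all arrays and -0.51 (standard error 0.26, adjusted p = 0.563 from limma) without Control replicate 1. Without Control replicate 2, when Control replicate 1 alone stood for Control, it was -2.59 (adjusted p = 0.00242 from limma). Gadd45g was the only member at least 2-fold higher in Control replicate 1 than on each of the other 3 arrays, which held for 6.02% of all probe sets. On that array all 10 fast skeletal muscle markers were highest, and their part in the Gadd45g value was not tested.

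Gadd45b, the member known to be induced by TGF-beta and NF-kB, did not separate the labels. Its brightest probe set, 1450971_at, read 470 and 476 in the Rhau KO arrays and 787 and 293 in the Control arrays. The Rhau KO arrays agreed closely and lay between the 2 Control arrays, which were 2.69-fold apart. The second, 1449773_s_at, read 338 and 228 against 603 and 185, the same order of the Control arrays with a gap of 3.26-fold. The third, 1420197_at, read 58.7 and 74.6 against 90.3 and 69.9 and was under 100 on every array. The log2 differences with all arrays were -0.02, -0.27 and -0.26. Without Control replicate 1 the first became 0.69 (standard error 0.19, adjusted p = 0.312 from limma) and the second 0.59, so the direction of both turned with that array. Without Control replicate 2, when Control replicate 1 alone stood for Control, they were -0.73 and -1.12. The 3 family members thus had 3 array patterns, with Gadd45a high in both Control arrays, Gadd45g high in 1 of them, and Gadd45b high in one and low in the other.

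Mdm2 was nearly level across the labels. Probe set 1423605_a_at read 859 and 1093 in the Rhau KO arrays and 1188 and 809 in the Control arrays, and 1427718_a_at read 505 and 450 against 581 and 430. Both ranges overlapped, with Control replicate 1 the highest array and Control replicate 2 the lowest on both. The log2 differences were -0.02 (95% interval -0.79 to 0.75) and -0.07 (95% interval -0.79 to 0.65) with all arrays, and 0.26 and 0.15 without Control replicate 1.  The third probe set, 1457929_at, was under 100 on all arrays, at 42.6 and 8.56 against 17.7 and 39.5, and its 95% interval of -3.19 to 2.25 is wide.

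Cdkn1a, which encodes the cell cycle inhibitor p21, was lower in the Rhau KO arrays on both probe sets, only slightly on the second. The groups did not overlap on either, which held in that direction for 14.0% of all probe sets. Probe set 1424638_at read 835 and 810 in the Rhau KO arrays and 1635 and 1281 in the Control arrays. Each Control array lay above both Rhau KO arrays, which were almost equal. The log2 difference was -0.82 (standard error 0.24, 95% interval -1.43 to -0.20, unadjusted p = 0.0190 and adjusted p = 0.892 from limma), or 1.76-fold lower, and -0.64 (standard error 0.14, adjusted p = 0.225 from limma) without Control replicate 1. Without Control replicate 2, when Control replicate 1 alone stood for Control, it was -0.99. It stayed under the 2-fold threshold in all 3 comparisons. With all arrays, it was no longer at an unadjusted p under 0.05 with eBayes without the trend or by the mean of both probe sets. The second probe set, 1421679_a_at, gave 508 and 482 against 544 and 537, with a log2 difference of -0.13 (95% interval -0.73 to 0.48). The 2 probe sets of Cdkn1a had the same direction and differed in size.

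Ccng1, the gene of cyclin G1, which recruits a phosphatase to MDM2, was within 1.19-fold between labels on its 3 probe sets. Probe set 1420827_a_at read 25246 and 27004 in the Rhau KO arrays and 28093 and 20782 in the Control arrays, and 1450017_at read 7421 and 7305 against 9211 and 4968. On both, Control replicate 1 was the highest array and Control replicate 2 the lowest, with the Rhau KO arrays between. The third, 1450016_at, read 5259 and 5016 against 4129 and 4542, with both Rhau KO arrays higher. The log2 differences were 0.11, 0.12 and 0.25 with all arrays, and 0.33, 0.57 and 0.18 without Control replicate 1, when the largest, for 1450017_at, had an adjusted p = 0.138 from limma. The first 2 turn to -0.012 and -0.0015 when each array is centred on its median.

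Btg2, an antiproliferative gene that recruits the CCR4-NOT deadenylase and is also an immediate early gene, was high in 1 array. Probe set 1416250_at read 1977 and 1350 in the Rhau KO arrays and 1047 and 4987 in the Control arrays, and 1448272_at read 623 and 651 against 566 and 1493. On both probe sets Control replicate 1 was the lowest array and Control replicate 2 was the highest, 2.52-fold and 2.29-fold above the highest of the other 3. With all arrays the log2 differences were -0.48 (95% interval -2.48 to 1.51) and -0.53 (95% interval -1.83 to 0.77). Without Control replicate 1 they were -1.61 (standard error 0.23, adjusted p = 0.0932 from limma) and -1.23 (standard error 0.15, adjusted p = 0.0616 from limma), 3.05-fold and 2.34-fold lower. That comparison sets the Rhau KO arrays against Control replicate 2 alone. Fos read 449 and 314 in the Rhau KO arrays and 629 and 2017 in the Control arrays, Atf3 read 729 and 718 against 322 and 4421, and Hspa1a read 1141 and 582 against 631 and 18079. All 16 genes of that list were highest in Control replicate 2, some of them only slightly, such as Dusp1 and Zfp36. The part of these genes in the Btg2 value was not tested.

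**Figure D2:**
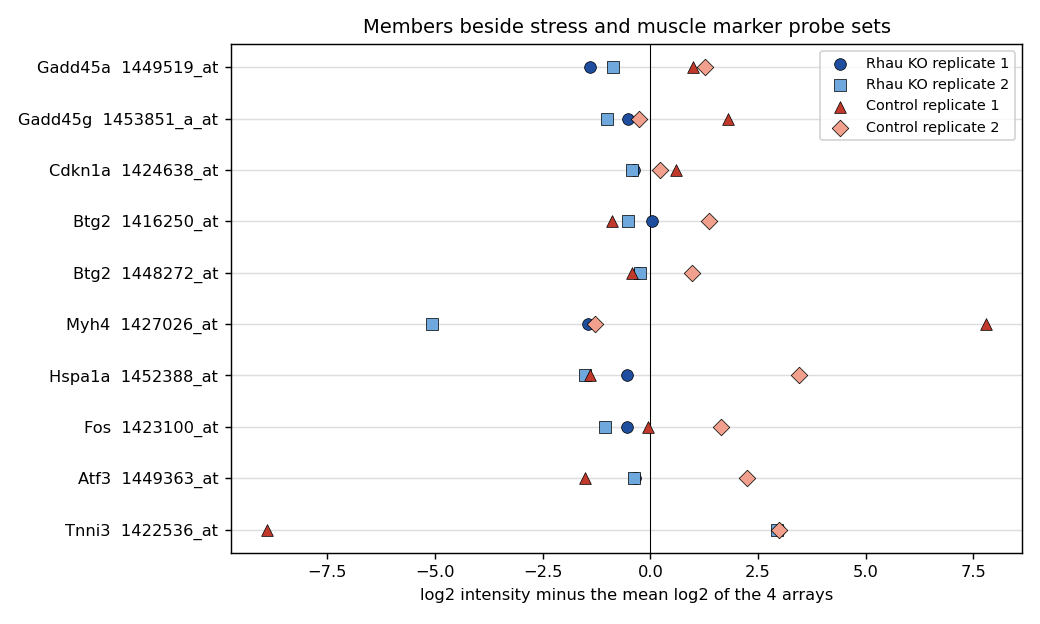
log2 intensity of 5 member probe sets and 5 muscle or stress marker probe sets minus each probe set's mean over the 4 arrays (horizontal axis), with symbols as in the plot of intensities. Btg2 has Control replicate 2 (diamond) alone to the right, as do Hspa1a, Fos and Atf3, Gadd45g has Control replicate 1 (triangle) alone to the right, as does Myh4, and Gadd45a has both Control arrays to the right.

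The sestrins are stress-induced proteins that restrain mTORC1 through the GATOR complexes. With all arrays, none of their probe sets passed both thresholds, a fold of 2 and an unadjusted p under 0.05. Sesn1 had the higher mean in the Rhau KO arrays on all 4 of its probe sets. Probe set 1438931_s_at read 4093 and 6307 in the Rhau KO arrays and 2991 and 3695 in the Control arrays, and 1444376_at read 247 and 189 against 104 and 162, both without overlap. On 1433711_s_at, at 3664 and 5519 against 2373 and 4050, and on 1454699_at, at 3629 and 5314 against 2180 and 3924, Control replicate 2 lay between the Rhau KO arrays. Control replicate 1 was the lowest array on each of the 4. The log2 differences were 0.61, 0.74, 0.54 and 0.59 in that order, with adjusted p = 0.892 from limma for each, and 0.46, 0.42, 0.15 and 0.16 without Control replicate 1. With Control replicate 2 left out instead, so that Control replicate 1 alone stood for Control, the values were 0.76, 1.05, 0.92 and 1.01. Probe sets of 1 gene share their RNA, so these 4 values are no independent measurements.

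Sesn2 was dim. Probe set 1425139_at read 114 and 51.8 in the Rhau KO arrays and 97.1 and 75.4 in the Control arrays, with a log2 difference of -0.15 (95% interval -1.61 to 1.31). Probe set 1451599_at read 48.0 and 30.5 against 28.2 and 150, with only Control replicate 2 above 100. Its log2 difference was -0.76 with all arrays and -1.97 (standard error 0.62, adjusted p = 0.353 from limma) without Control replicate 1. The 2 probe sets put Control replicate 2 at different places, the first between the others and the second highest.

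**Figure D3:**
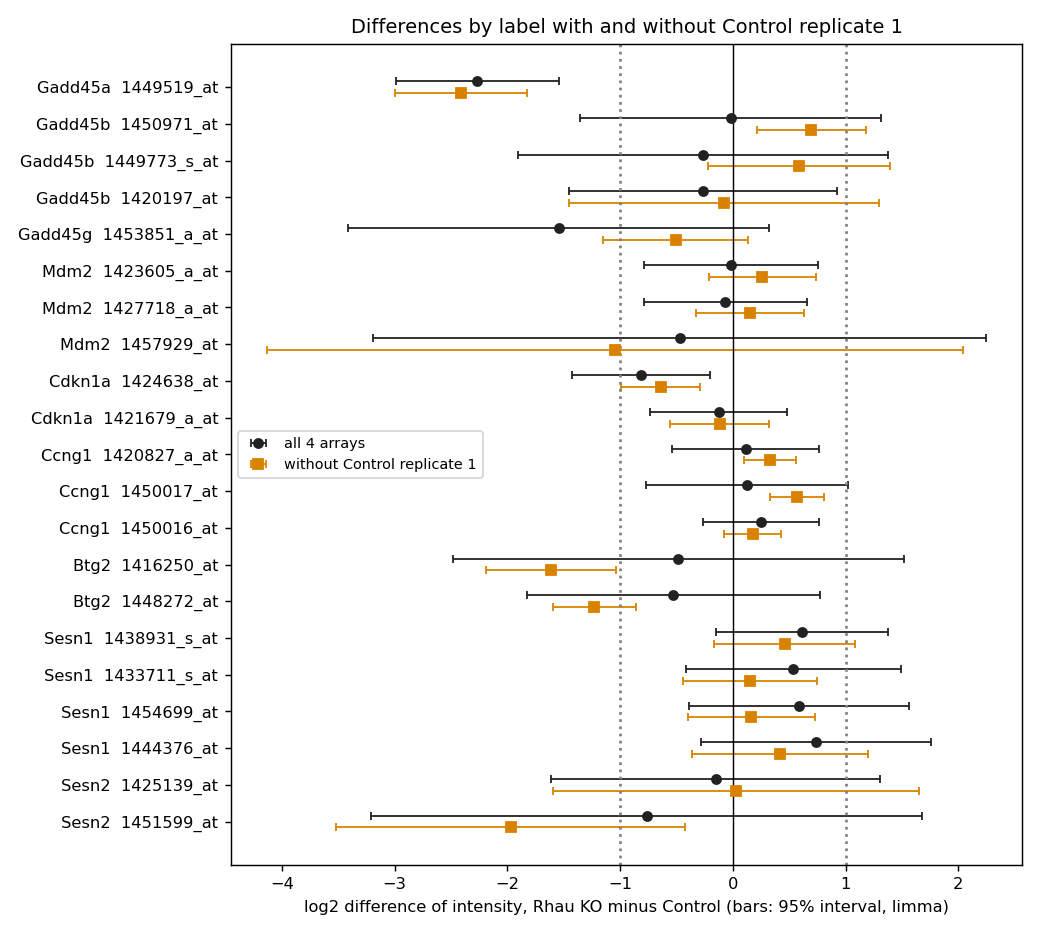
log2 difference of intensity, Rhau KO minus Control (horizontal axis), of the 21 member probe sets from limma, with 95% intervals, for all 4 arrays (circles) and without Control replicate 1 (squares). Dotted lines mark 2-fold. The values of Gadd45a lie beyond 2-fold both ways (-2.27 and -2.41), Gadd45g moves from -1.55 to -0.51, and the 2 Btg2 probe sets move from -0.48 and -0.53 to -1.61 and -1.23.

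Counted by the thresholds that the study states for its arrays, 2-fold or more and an unadjusted p below 0.05, 1 of the 21 member probe sets (Gadd45a) was lower in the Rhau KO arrays, against 1.48% of all probe sets, and 0 were higher, against 1.88%. At an adjusted p under 0.05 limma called 0 members and 0% of all probe sets. At an unadjusted p under 0.05 it called 2 members (Gadd45a and one probe set of Cdkn1a) and 1892 of all 45037, where the methods' t-test gave 2374 of all probe sets and 0 after adjustment. Without Control replicate 1, 4 members were lower past both thresholds (Gadd45a, both probe sets of Btg2 and 1451599_at of Sesn2), against 1.36% of all probe sets, and 0 were higher, against 3.28%. Without Control replicate 2 instead, 3 members were lower past both thresholds (Gadd45a, Gadd45g and 1449773_s_at of Gadd45b), against 5.44% of all probe sets, and 2 were higher (1444376_at and 1454699_at of Sesn1), against 10.1%. In that comparison 5 members were at an adjusted p under 0.05 (Gadd45a, Gadd45g, 1450971_at of Gadd45b, 1424638_at of Cdkn1a and 1454699_at of Sesn1), against 14.0% of all probe sets. With Control replicate 1 left out, Gadd45a was the only member at an adjusted p under 0.05, against 0.293% of all probe sets. With 2 arrays against 2, the smallest p of an exact permutation test is 0.333.

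Both Rhau KO arrays lay below both Control arrays on 4 member probe sets, against 14.0% of all, and above them on 3, against 21.4% of all. The 4 were Gadd45a, Gadd45g and both of Cdkn1a, and the 3 were 1450016_at of Ccng1 and 2 of Sesn1. The median log2 difference over the 21 was -0.13 with all arrays and 0.15 without Control replicate 1, where the medians of all probe sets were 0.09 and 0.03. Centring each array on its median shifted every log2 difference by -0.12. The 2 Control arrays were more than 2-fold apart on 7 of the 21, against 36.1% of all probe sets, and the 2 Rhau KO arrays on 2 of the 21, against 22.2%. Control replicate 1 was the highest array on 10 of the 21 and the lowest on 8, where it was the highest on 28.6% and the lowest on 37.5% of all probe sets. At least 2-fold below all others, Control replicate 1 held 0 members, against 10.7% of all probe sets. Control replicate 2 was at least 2-fold above the others on 3 members (both of Btg2 and 1451599_at of Sesn2), against 2.33% of all, and at least 2-fold below on 0, against 4.60%.

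The other genes of the pathway, 115 in 8 lists, were read the same way. Of these, 107 had probe sets, 250 in all, with a median log2 difference of 0.10. Past both thresholds, 5 of the 250 were lower in the Rhau KO arrays, against 1.48% of all probe sets, and 3 were higher, against 1.88%. These numbers changed most when Control replicate 2 was left out, as did those of all probe sets. In the list of p53 regulators, 3 of 58 probe sets were lower and 1 was higher. The 2 of these that read above 100 on every array belong to Kat5, the acetyltransferase TIP60, which acetylates p53 and ATM. Kat5 1433980_at read 667 and 684 in the Rhau KO arrays and 2524 and 5517 in the Control arrays, and the log2 difference was -2.47 (limma, standard error 0.41, adjusted p = 0.892) with all arrays and -3.03 (limma, standard error 0.13, adjusted p = 0.0186) without Control replicate 1. Kat5 1433981_s_at gave 490 and 601 against 1866 and 4869, and its log2 difference was also -2.47. On both, the Control arrays lay above both Rhau KO arrays and Control replicate 2 was the higher, by 2.19-fold and 2.61-fold. Trp63, a p53 family member, and Trp53bp1, a DNA break adaptor, also passed the thresholds, at -3.82 and 2.60, on probe sets where at least 3 of the 4 arrays were under 100. Neither the other probe sets of Trp63 (4 in all) nor those of Trp53bp1 (6 in all) passed them.

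Among other p53 targets of the cell cycle, 1 of 14 probe sets was lower and 1 higher. Nupr1, a stress-induced chromatin protein, read 300 and 247 in the Rhau KO arrays and 832 and 412 in the Control arrays, a log2 difference of -1.11 that was -0.60 without Control replicate 1 and then no longer past the thresholds. On its other probe set the difference was -0.62. Plk2, a polo-like kinase, was higher at 63.9 and 35.7 against 13.2 and 14.6, all under 100, and was no longer past the thresholds without Control replicate 1. The other probe set of Plk2 read 808 and 811 against 339 and 819, with overlap, and its log2 difference of 0.62 was -0.02 without Control replicate 1. Steap3, an iron reductase of the metabolic targets, was higher at 104 and 63.0 against 24.4 and 13.8, a log2 difference of 2.14, with 3 arrays under 100. The groups overlapped on its other probe sets, at 0.23 and 1.19. Of 26 probe sets of cell death targets none passed both thresholds, and the smallest p in that list were of Aen, an apoptosis-enhancing nuclease, at -0.75 and -0.77 on 2 of its 4 probe sets. On the other two the groups overlapped, at -0.09 and -0.22.

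Among partners of the members, Wdr59, a GATOR2 subunit, was the only one past both thresholds. Wdr59 read 238 and 242 in the Rhau KO arrays and 496 and 619 in the Control arrays. Its log2 difference was -1.21 (standard error 0.27) with all arrays and -1.37 without Control replicate 1, on 1 of 46 probe sets of that list. None of 24 probe sets of Gadd45 partners passed with all arrays, and 1 was higher without Control replicate 1 (a probe set of Mapk14, named after its values were seen, at 162 and 115 against 193 and 24.9). With all arrays, the smallest p there were of Map2k3, a p38 kinase kinase, and of Gadd45gip1, on 1 of the 2 probe sets of each. That of Map2k3 read 3013 and 3509 against 11263 and 3684, high in Control replicate 1 alone. That of Gadd45gip1 read 2502 and 2574 against 2273 and 1524. None of 32 probe sets of p21 partners and related inhibitors passed, and the list's median of 0.47 became -0.16 without Control replicate 1. Ccnd1, cyclin D1, read 685 and 815 against 108 and 691 on the 1 of its 3 probe sets with the smallest p. Control replicate 1 alone was low, and the log2 difference on that probe set went from 1.45 to 0.11 without it. Cdkn1b (p27) read 1268 and 2655 against 4038 and 2603 on 1 of its 2 probe sets. None of 24 probe sets of the BTG and TOB family with its deadenylases passed, and Tob2, a relative of Btg2, was at -0.66 and -0.49 on the 2 of its 5 probe sets with the smallest p, both without overlap, and at -0.20, -0.52 and 0.0059 on the others, with overlap.

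**Figure D4:**
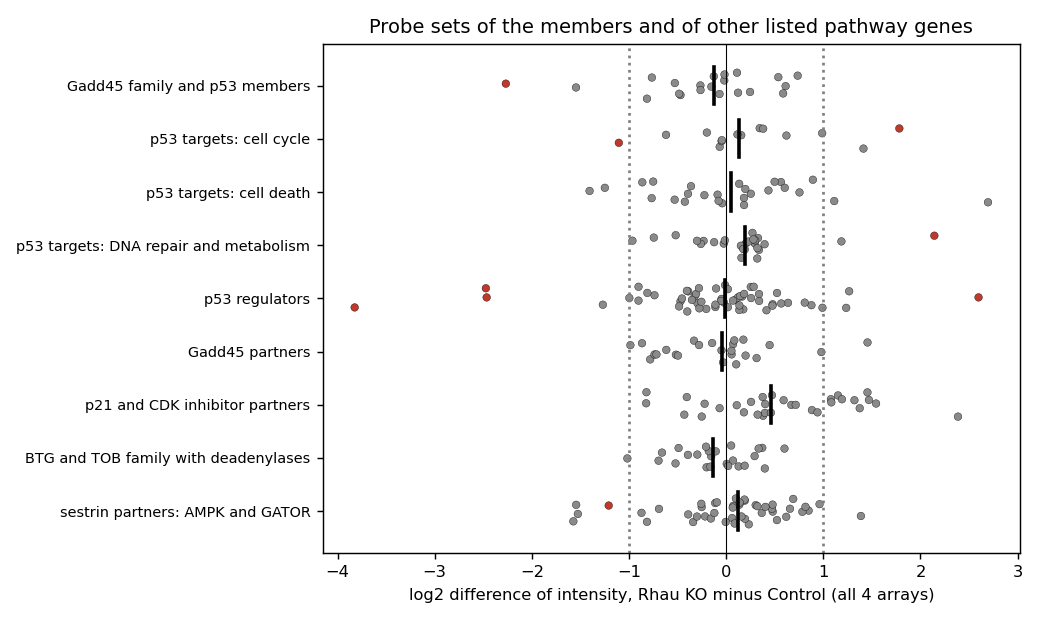
log2 difference of intensity, Rhau KO minus Control with all 4 arrays (horizontal axis), of each probe set of the members and of the 8 lists of other pathway genes (rows), with black bars for medians, dotted lines at 2-fold and red points for probe sets past both thresholds. Of 21 member points 1 is red (Gadd45a, -2.27), and 8 of 250 in the other lists are. The list of p53 regulators, the longest with 58 points, holds 4 of these 8, and 2 of the 4 are of Kat5.

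The genes whose array pattern was nearest to that of Gadd45a were 1700094D03Rik, Hexim1, Ccdc66, Kcnj11 and Senp6. Nearness was the root mean square distance between log2 intensities centred over the 4 arrays, over 19518 probe sets brighter than the median, and it was 0.083 for 1700094D03Rik, 0.138 for Hexim1, 0.145 for Ccdc66, 0.165 for Kcnj11 and 0.265 for Senp6. Hexim1, an inhibitor of the elongation factor P-TEFb, had intensities of 592 and 740 in the Rhau KO arrays and 2372 and 3413 in the Control arrays. Kcnj11, a pore subunit of the ATP-sensitive potassium channel, read 136 and 246 against 955 and 959, and Senp6, a SUMO protease, read 121 and 169 against 488 and 493. In each, both Control arrays lay near each other and above both Rhau KO arrays. The list was chosen by likeness on 4 arrays and is a description only.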

How the data were processed

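RNA labelled as heart had been hybridized to 4 Affymetrix Mouse Genome 430 2.0 arrays (2 Rhau KO, 2 Control). The intensity values, as the authors deposited them, are linear MAS 5.0 signals scaled to a common trimmed mean. On each array 51.8% to 54.0% of probe sets were below 100, and this dim share and the number of arrays limit the precision. Gene names came from the platform annotation. Rhau KO was compared with Control on log2 intensities, with no pseudocount, for 45037 probe sets (64 controls left out), using limma 3.58.1 (R 4.3.3) with lmFit and eBayes (trend) and Benjamini-Hochberg adjustment over all of them. Where 1 array was left out, the fit takes the spread of the remaining array of its group from the other group. The members and lists were chosen with earlier results of these data known. Named genes were all members, the label checks, stated markers, pathway genes past both thresholds or else the 2 probe sets with the smallest p of a list, and the 5 nearest to Gadd45a. Promoters were read from RefSeq (GRCm38.p6), and all 9 measured genes matched. The code was tested on simulated data. Other settings tried were quantile normalization, median centring, eBayes without the trend, a pseudocount of 32, a mean intensity of at least 100, the brightest probe set or a mean over probe sets per gene, the replicate block, the methods' t-test, and omission of each array in turn.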

Additional observations from a re-analysis of the deposited data

How the results depend on the processing

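Of 161 member values recomputed with all arrays kept, 158 kept their direction and their side of both thresholds together, and the exceptions were Gadd45g, past them with the replicate block, and 2 probe sets of Ccng1, reversed at -0.012 and -0.0015 by median centring. Cdkn1a 1424638_at, under 2-fold throughout, was no longer at an unadjusted p under 0.05 with eBayes without the trend or by the mean of all probe sets. Leaving out 1 array at a time reversed 16 of 84 member values. The log2 difference then ranged from -2.53 to -2.01 for Gadd45a, from -2.59 to -0.51 for Gadd45g, from -0.73 to 0.69 and from -1.12 to 0.59 for Gadd45b, from -0.29 to 0.26, from -0.29 to 0.15 and from -1.63 to 0.69 for Mdm2, from -0.11 to 0.33 and from -0.32 to 0.57 for Ccng1, from -1.61 to 0.64 and from -1.23 to 0.17 for Btg2, and from -0.72 to 0.42 and from -1.97 to 0.44 for Sesn2. It kept its sign on the 4 probe sets of Sesn1, from 0.15 to 1.05. The member probe sets past both thresholds numbered 2 with the replicate block and 1 to 5 without 1 array (4 without Control replicate 1, 5 without Control replicate 2). The other pathway genes had 8, with 3 at a mean intensity of at least 100, 2 by the brightest probe set, 3 by the mean of all probe sets, 3 by the methods' t-test and 3 to 57 without 1 array. All probe sets past both thresholds numbered 1514 (847 higher, 667 lower), 744 with the pseudocount, 397 at a mean intensity of at least 100, 599 by the brightest probe set, 639 by the mean of all probe sets, and 898 to 7016 without 1 array. The split became 699 higher and 819 lower by quantile normalization and 664 and 865 by median centring. Adjusted calls numbered 0, and 0 to 6286 without 1 array (132 without Control replicate 1, 6286 without Control replicate 2). For arrays of the same replicate number, deviations from the group means correlated at 0.00293. This value cannot decide whether the arrays were paired, because the 2 Control arrays differed widely in muscle and heat shock markers. The replicate block gave 1606 probe sets past both thresholds over all and 9 among the other pathway genes. The causes were not tested.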
